A study of Mus musculus with 12 samples.

Results

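Interferon-stimulated antiviral genes were examined in mouse glomeruli kept in culture with TNF. The list held 36 genes, named as interferon-stimulated or related antiviral genes with earlier results of these data known, and each gene was represented by the probe set annotated to it alone with the highest mean over all arrays. A value was obtained for 34 of the 36, out of 18193 genes tested in all. The only probe set of Isg15, the ubiquitin-like modifier, carried several gene symbols and so gives no value for that gene, and Ifi44 was not analysed here.

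Glomeruli were isolated from male mice of 6 to 8 weeks. The paper describes the wildtype controls as C57BL/6J and gives the mutant strains B6.129 names. Cultures of 5000 glomeruli were starved of serum and then given murine TNF at 50 ng/ml for 12 hours, and RNA was hybridised to Affymetrix whole-genome mouse arrays. There were 4 genotypes with 3 arrays each. These were wildtype, Tnfr1-/- (allele B6.129-Tnfrsf1atm1Mak, which lacks TNF receptor 1), Tnfr2-/- (B6.129-Tnfrsf1btm1Mwm, which lacks receptor 2) and Tnfr1,2-/-, which lacks both. Double mutants and wildtype controls came from crosses between the single mutants, and all cells of a mouse carried the deletion. Every culture received TNF, so the values compare genotypes under TNF and do not measure induction by TNF. The 3 arrays of a genotype came from independent preparations, but the labels do not tie them to separate mice, so p-values measure the spread between these preparations.

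Interferons of type I bind the receptor pair Ifnar1 and Ifnar2, and interferon-γ binds Ifngr1 and Ifngr2. Both receptors act through Janus kinases and STAT proteins. A STAT complex that holds Irf9 then binds the interferon-stimulated response element, and STAT dimers bind the gamma-activated sequence, which switches on sensors of viral nucleic acid, enzymes that degrade or block viral RNA, ubiquitin-like modifiers and membrane proteins that trap virions. TNF acts mainly through NF-κB, and in some cell types it also raises Irf1 and small amounts of interferon-β, which can turn on the same genes.

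Of the 34 measured genes, 10 were lower in glomeruli without Tnfr1 and none was higher, when the 6 arrays of the Tnfr1-/- and Tnfr1,2-/- genotypes were set against the 6 wildtype and Tnfr2-/- arrays. The call required a limma p below 0.05 after Benjamini-Hochberg adjustment over all 18193 genes, together with a 1.5-fold or greater difference. Over all genes, 1.59% were called lower and 0.929% higher in this comparison. The 10 were Parp14, Rtp4, Oasl2, Xaf1, Parp9, Dtx3l, Bst2, Ifitm3, Trim21 and Parp12. Not every gene of the list was lower. Its median log2 difference was -0.16 (0.0023 over all genes), and 24 of the 34 differences were negative (49.4% over all genes). The 8 genes near background lay between -0.13 and 0.05 and drew the median toward 0. Ifit2, Ifit3, Usp18 and Rsad2 were among those with positive differences, and none of these was called. In tissue of several cell types, fewer cells of a type and less RNA per cell cannot be told apart.

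**Figure D1:**
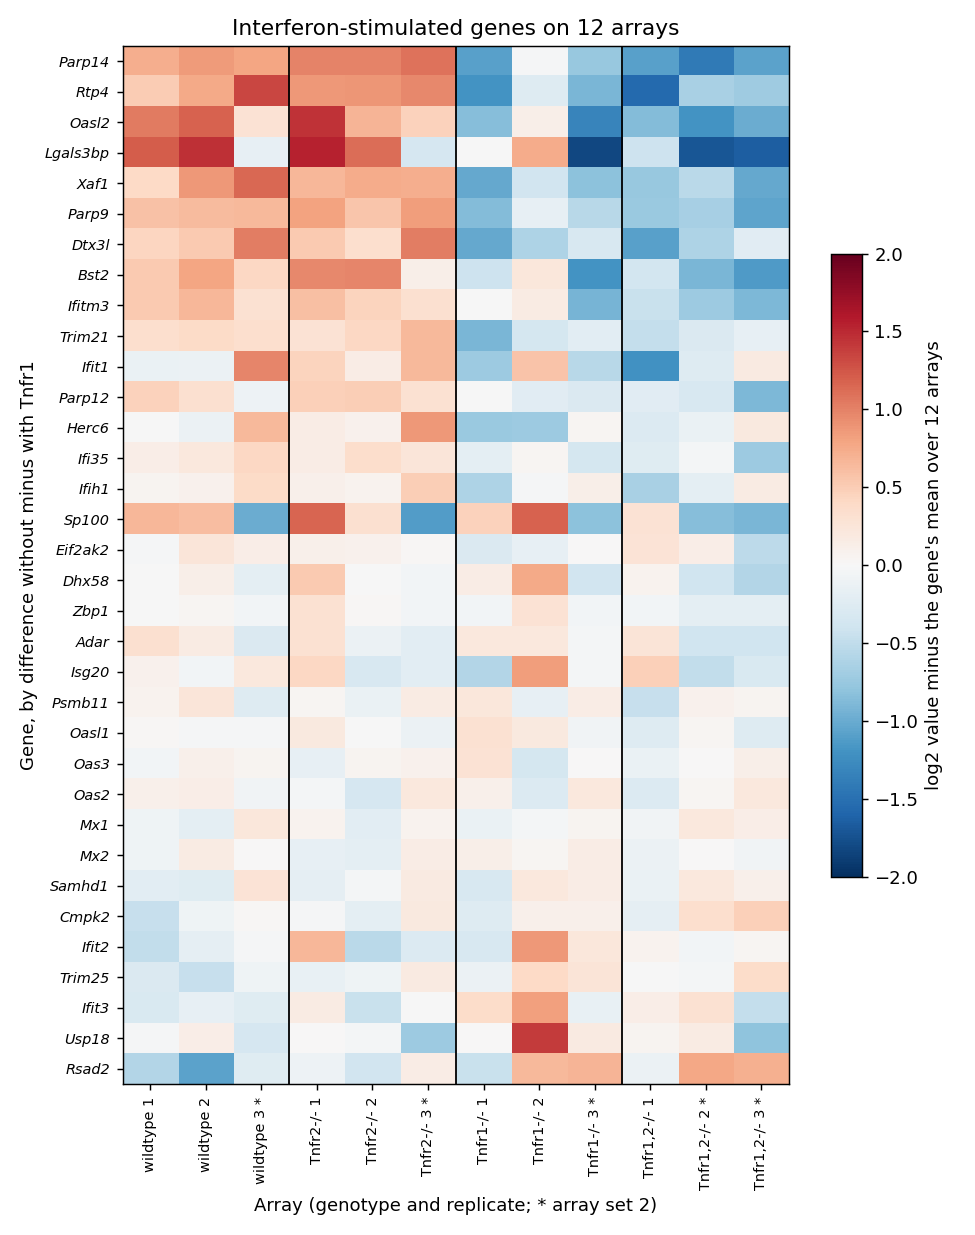
Heat map of the 34 measured genes of the list (rows, ordered by the difference between arrays without and with Tnfr1) on 12 arrays (columns, grouped by genotype). An asterisk marks array set 2. Colour is the log2 value minus the gene's mean over the 12 arrays, from -2 (blue) to 2 (red). The upper rows, from Parp14 to Trim21, are mostly red with Tnfr1 and mostly blue without it, while Ifit2, Ifit3, Usp18 and Rsad2 at the bottom do not follow that order.

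The arrays fell into 2 sets by the difference between the 3′ and 5′ probe sets of the beta-actin control, a measure of how complete the labelled RNA was. That difference was 0.67 to 1.0 on 7 arrays (set 1) and 1.82 to 2.30 on 5 arrays (set 2, which held wildtype 3, Tnfr2-/- 3, Tnfr1-/- 3 and Tnfr1,2-/- 2 and 3). Set 1 held 4 arrays with Tnfr1 and 3 without, and set 2 held 2 with and 3 without. Values within each set are given where they matter. Tnfrsf1a, the gene of receptor 1, read 10.23 to 10.82 on the log2 scale with Tnfr1 and 9.11 to 10.18 without it, and Tnfrsf1b read 6.76 to 8.36 with Tnfr2 and 4.95 to 5.66 without it. Whether these probes lie in the deleted parts was not checked. All 4 measured podocyte markers, 5 of 5 endothelial and 5 of 5 mesangial markers reached a log2 value of 6 on at least 3 arrays, against 1 of 6 tubular and none of 3 neutrophil markers. Among the markers of leukocytes, 5 of 7 for macrophages, 1 of 2 for plasmacytoid dendritic cells and 3 of 5 for lymphocytes reached that value. The highest mean of a marker was 11.5 for macrophages, 5.89 for plasmacytoid dendritic cells and 6.49 for lymphocytes. The array medians were 5.59 to 5.64, so the counts for the latter 2 cell types do not show that these cells were present. The mean over the macrophage markers ranged from 7.39 to 8.17 with Tnfr1 and from 7.18 to 8.13 without it, and none of the 7 was called. Over the 12 arrays, the mesangial Itga8 was called higher without Tnfr1 (log2 difference 0.98) and the dim neutrophil gene S100a8 lower (-1.22). In Tnfr1-/- against wildtype glomeruli Itga8 (1.4) and the endothelial Kdr (1.09, limma adjusted p = 0.0414) were higher, and in Tnfr1,2-/- against Tnfr2-/- glomeruli S100a8 was lower (-1.53). Their part in the differences below was not tested.

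The promoter windows of RefSeq (GRCm38.p6), from 250 bases before to 50 bases after a transcription start, were searched on both strands for the core of the interferon-stimulated response element, GAAANNGAAA. A window was given for 25 of the measured genes, and 9 of them (36%) held the core, against 3.99% of 27025 genes with a window. It was present in 3 of the 7 genes with a window that were lower without Tnfr1 (Bst2, Ifitm3 and Trim21). Among the 18 others it was present in 6 (Eif2ak2, Ifih1, Ifit1, Ifit3, Oas3 and Rsad2). No window was given for Parp14, Parp9 and Rtp4, which were also lower without Tnfr1, so their promoters were not examined. The gamma-activated sequence, TTCNNNGAA, was in 32% of the 25 windows against 9.55% of all, and a kB site, GGGANNTTCC, in 12% against 1.63%. Of the lower genes, 28.6% held the gamma-activated sequence and 14.3% the kB site, and of the others 33.3% and 11.1%. These motifs can overlap one another, and a match describes the letters of the window, not a bound site. The stretches below are shown because they put the same core upstream of 1 gene that was lower without Tnfr1 (Bst2) and of 3 that were not called (Ifit1, Ifit3 and Rsad2); capitals mark the core, read along the gene's strand in either orientation. They lie at chr8:71537572-71537617 (minus strand), chr19:34640770-34640828 (plus), chr19:34583358-34583431 (plus) and chr12:26456548-26456587 (minus).
Bst2: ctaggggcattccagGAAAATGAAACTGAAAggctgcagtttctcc
Ifit1: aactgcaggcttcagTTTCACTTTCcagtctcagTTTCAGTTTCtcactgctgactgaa
Ifit3: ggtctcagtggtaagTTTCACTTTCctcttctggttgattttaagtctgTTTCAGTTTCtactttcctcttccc
Rsad2: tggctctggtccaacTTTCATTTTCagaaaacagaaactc
In Bst2 the capitals join 2 overlapping copies, which began 130 bases before the start. Ifit1 and Ifit3 each held 2 separate copies, the first of them 104 and 156 bases before the start, and Rsad2 held 1 at 120 bases.

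All 4 members of the PARP and DTX3L group were lower without Tnfr1. Parp14, Parp9 and Parp12 belong to the ADP-ribosyltransferase family, and Dtx3l is the ubiquitin ligase that works as a complex with Parp9. Parp14 read 9.15, 9.27 and 9.21 on the wildtype arrays and 9.42, 9.42 and 9.51 on the Tnfr2-/- arrays. Its values were 7.34, 8.40 and 7.66 in Tnfr1-/- and 7.34, 7.01 and 7.35 in Tnfr1,2-/- glomeruli. Every array without Tnfr1 was below every array with it, and Tnfr1-/- replicate 2 was the highest of the 6. The log2 difference was -1.81, that is 3.51-fold lower (95% interval 2.76 to 4.47, limma adjusted p = 5.27e-05). Parp9 showed the same separation, with 9.58, 9.63 and 9.64 in wildtype, 9.81, 9.55 and 9.83 in Tnfr2-/-, 8.13, 8.83 and 8.45 in Tnfr1-/- and 8.26, 8.33 and 7.94 in Tnfr1,2-/- glomeruli. It was 2.55-fold lower without Tnfr1 (2.10 to 3.09, limma adjusted p = 8.82e-05).

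Dtx3l read 8.66, 8.76 and 9.25 in wildtype, 8.75, 8.57 and 9.26 in Tnfr2-/-, 7.21, 7.62 and 7.91 in Tnfr1-/- and 7.15, 7.61 and 8.01 in Tnfr1,2-/- glomeruli. The groups did not overlap, and within each genotype the arrays of set 2 were the higher ones. Its expression was 2.45-fold lower without Tnfr1 (1.83 to 3.27, limma adjusted p = 0.00239). Parp14, Dtx3l and Parp9 lie together within 141 kb of chromosome 16 (GRCm38.p6), and the annotated Dtx3l and Parp9 genes share 558 bases; whether any probe falls in the shared stretch was not checked. Parp12, on chromosome 6, read 9.89, 9.75 and 9.33 in wildtype, 9.90, 9.92 and 9.74 in Tnfr2-/-, 9.42, 9.21 and 9.14 in Tnfr1-/- and 9.21, 9.11 and 8.53 in Tnfr1,2-/- glomeruli. Here the groups overlapped by 1 array on each side, since wildtype 3 was below Tnfr1-/- 1. The difference was -0.65, or 1.57-fold (1.27 to 1.94, limma adjusted p = 0.0297), and this call was lost when any of 8 arrays was left out, with adjusted p up to 0.0915 or a difference of -0.54. It was also lost in array set 1 alone (-0.60, adjusted p = 0.059).

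Rtp4, a chaperone that moves receptors to the cell surface and an inhibitor of flavivirus replication, was 3.40-fold lower without Tnfr1 (2.46 to 4.69, limma adjusted p = 0.000519). It read 10.02, 10.28 and 10.85 in wildtype and 10.38, 10.40 and 10.48 in Tnfr2-/- glomeruli. Without Tnfr1 it read 8.32, 9.26 and 8.60 in the single and 7.96, 8.87 and 8.80 in the double mutants, and no array of one side reached the other. A second probe set of Rtp4, with a mean of 4.71, was called in the same direction (-0.85). Parp14, Dtx3l, Trim21 and Xaf1 also had a second probe set, with differences of -0.70, -1.72, -0.71 and -0.24. These probe sets had means of 4.60, 6.92, 7.31 and 4.02, and none was called. Xaf1, a promoter of apoptosis, was 2.86-fold lower (2.26 to 3.62, limma adjusted p = 0.000164). Its values were 9.06, 9.53 and 9.82 in wildtype, 9.33, 9.41 and 9.39 in Tnfr2-/-, 7.64, 8.29 and 7.85 in Tnfr1-/- and 7.91, 8.12 and 7.64 in Tnfr1,2-/- glomeruli. The groups were again apart.

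Among the oligoadenylate synthetase family, Oasl2 was called and the other 3 were dim. Oasl2 read 8.52, 8.67 and 7.77 in wildtype, 8.93, 8.16 and 7.95 in Tnfr2-/-, 6.63, 7.60 and 6.17 in Tnfr1-/- and 6.62, 6.28 and 6.49 in Tnfr1,2-/- glomeruli. The closest values of the 2 sides were 7.77 and 7.60, without overlap. Its expression was 3.24-fold lower without Tnfr1 (2.18 to 4.82, limma adjusted p = 0.00319). Oas2 and Oas3, which make the second messenger that activates RNase L, and Oasl1, which holds back translation of Irf7, stayed under 6 on all arrays with differences from -0.02 to 0.01.

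Both membrane factors were lower. Ifitm3, which blocks fusion of virus in endosomes, had the highest reading of the list in wildtype glomeruli. It read 13.09, 13.23 and 12.87 in wildtype, 13.16, 13.00 and 12.88 in Tnfr2-/-, 12.55, 12.73 and 11.63 in Tnfr1-/- and 12.11, 11.84 and 11.66 in Tnfr1,2-/- glomeruli. All 6 arrays without Tnfr1 were below the others, and the expression was 1.93-fold lower (1.47 to 2.53, limma adjusted p = 0.0122). Bst2, or tetherin, which holds budding virions on the cell surface, read 9.39, 9.65 and 9.28 in wildtype, 9.82, 9.84 and 8.98 in Tnfr2-/-, 8.45, 9.09 and 7.67 in Tnfr1-/- and 8.5, 7.94 and 7.73 in Tnfr1,2-/- glomeruli. Tnfr1-/- 2 was above Tnfr2-/- 3, so the groups overlapped by these 2 arrays. Bst2 was 2.40-fold lower (1.65 to 3.49, limma adjusted p = 0.0155). The call was lost without wildtype 2 (adjusted p = 0.0522) or without Tnfr2-/- 2 (0.0544), while within array sets 1 and 2 the differences were -1.0 and -1.35.

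Of the TRIM ligases, Trim21 was called and Trim25 was not. Trim21, the antibody receptor of the cytosol, read 9.24, 9.28 and 9.24 in wildtype, 9.19, 9.32 and 9.55 in Tnfr2-/-, 7.99, 8.55 and 8.70 in Tnfr1-/- and 8.42, 8.62 and 8.74 in Tnfr1,2-/- glomeruli. The groups did not overlap, and the expression was 1.74-fold lower (1.43 to 2.12, limma adjusted p = 0.00456). Trim25, which ubiquitinates RIG-I, had a difference of 0.29 with a 95% interval from 0.02 to 0.57 and was not called (limma adjusted p = 0.405).

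**Figure D2:**
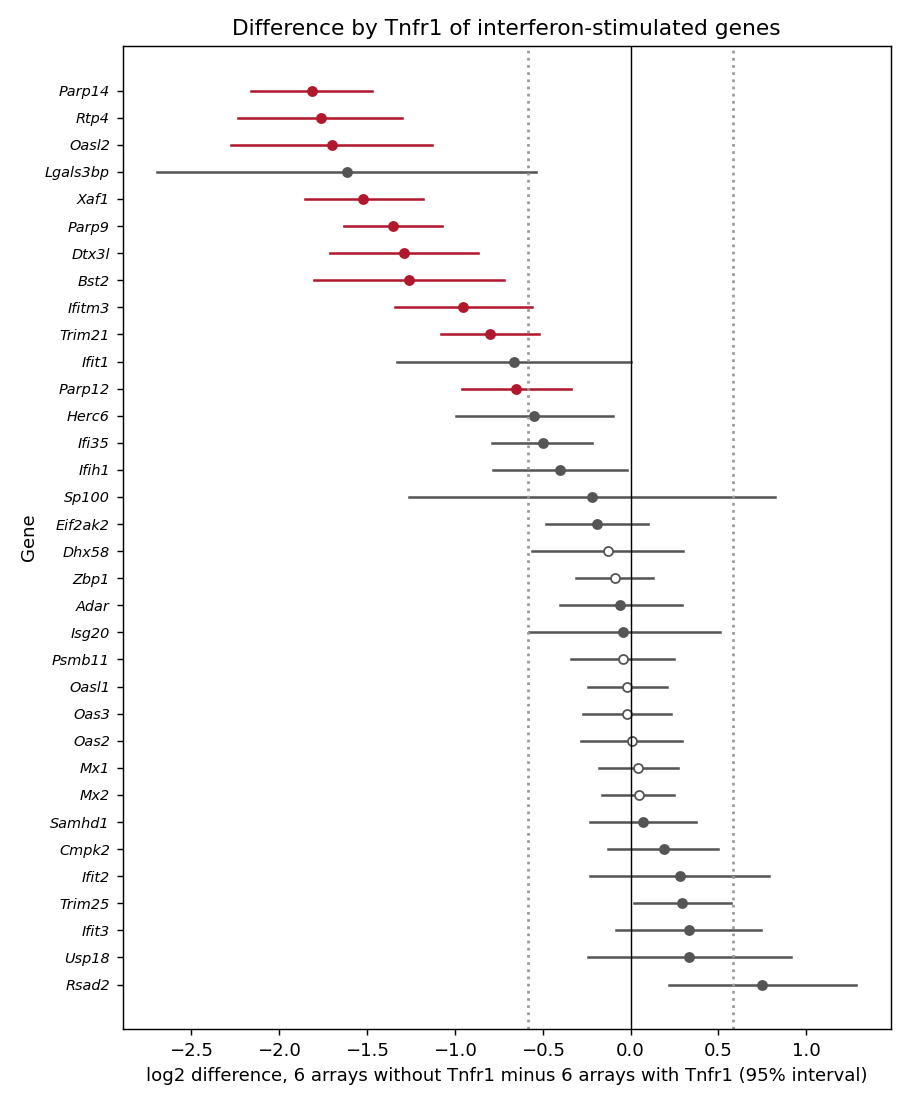
Log2 difference between the 6 arrays without and the 6 with Tnfr1 for the 34 measured genes, with 95% intervals (limma). Red marks the 10 genes called lower, grey the rest, and open circles the 8 genes that did not reach a log2 value of 6 on at least 3 arrays; dotted lines mark 1.5-fold. The differences run from -1.81 (Parp14) to 0.75 (Rsad2), and the interval of Lgals3bp, which was not called, is among the widest.

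In 9 of the 34 genes every array without Tnfr1 was below every array with it, as in 1.78% of all genes, and in none was every array above (1.2% of all genes). The other 25 overlapped over the 12 arrays. Within array set 1 and within array set 2, a comparison added after seeing the data, all arrays without Tnfr1 were below those with it for 14 genes (3.22% of all genes): the same 9 and Bst2, Herc6, Ifih1, Lgals3bp and Parp12. A 95% interval that lay wholly within 1.5-fold in both directions was found for 14 of the 34, against 70.6% of all genes. Of these 14, 8 were genes below a log2 value of 6 on nearly all arrays, where a change could hardly be seen. The remaining 6, which reached that level on at least 3 arrays, were Eif2ak2, Adar, Isg20, Cmpk2, Samhd1 and Trim25. Eif2ak2, the RNA-activated kinase PKR, had a difference of -0.19 (-0.48 to 0.10), and Adar, the adenosine deaminase that edits double-stranded RNA, one of -0.06 (-0.40 to 0.29). Samhd1, which breaks down nucleotides needed by retroviruses, had a difference of 0.07 (-0.23 to 0.37).

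Lgals3bp, a secreted glycoprotein, had a large difference that was not called over the 12 arrays. It read 10.77, 11.02 and 9.39 in wildtype, 11.09, 10.67 and 9.22 in Tnfr2-/-, 9.55, 10.30 and 7.74 in Tnfr1-/- and 9.14, 7.85 and 7.90 in Tnfr1,2-/- glomeruli. In each genotype the low values were those of array set 2, which lay 1.65 below set 1 after the genotypes were accounted for. The pooled difference was -1.61 (-2.69 to -0.54, limma adjusted p = 0.151), and the differences were -1.22 within set 1 and -1.48 within set 2. With the array set as a block it was called lower (-1.34, limma adjusted p = 0.000196). Sp100, a nuclear body protein, was likewise lower in set 2, by 1.57 on the log2 scale, but its difference by Tnfr1 was -0.05 within set 1 and 0.19 within set 2.

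The IFIT proteins, which bind viral RNA, were not called. Ifit1 read 7.92, 7.93 and 9.03 in wildtype, 8.49, 8.20 and 8.69 in Tnfr2-/-, 7.32, 8.62 and 7.49 in Tnfr1-/- and 6.84, 7.79 and 8.23 in Tnfr1,2-/- glomeruli. Its range without Tnfr1, from 6.84 to 8.62, took in most of the range with it. Within set 1 the arrays overlapped (difference -0.54), and within set 2 they did not, with 8.69 to 9.03 with Tnfr1 and 7.49 to 8.23 without it (-1.02). The pooled difference was -0.66 (-1.33 to 0.00, limma adjusted p = 0.46). For Ifit2 and Ifit3 the differences were 0.28 (-0.23 to 0.79) and 0.33 (-0.08 to 0.74). Ifit3 held 2 copies of the response element core, as Ifit1 did, and the difference between the 2 genes was not tested. Mice carry close copies of the IFIT genes, and how far the probes tell them apart was not checked.

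Rsad2, or viperin, which makes a chain terminator of viral RNA synthesis, had the highest positive difference of the list. It read 9.06, 8.57 and 9.40 in wildtype, 9.54, 9.26 and 9.79 in Tnfr2-/-, 9.20, 10.29 and 10.32 in Tnfr1-/- and 9.53, 10.42 and 10.36 in Tnfr1,2-/- glomeruli. Replicate 1 of each mutant without Tnfr1 lay among the arrays with Tnfr1, and the other 4 arrays lay above all of them. The difference was 0.75 (0.22 to 1.28) and was not called (limma adjusted p = 0.189). With the array set as a block it was 0.65 and passed narrowly (limma adjusted p = 0.04997). The other 2 probe sets of Rsad2 had differences of 0.90 and 0.50, neither of them called. Cmpk2, the nucleotide kinase encoded next to Rsad2, had a difference of 0.19 (-0.13 to 0.50), and the exonuclease Isg20 one of -0.04 (-0.58 to 0.51).

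Usp18, the protease that removes Isg15 and dampens the type I receptor, read 8.97, 9.14 and 8.66 in wildtype, 9.0, 8.96 and 8.27 in Tnfr2-/-, 9.01, 10.40 and 9.18 in Tnfr1-/- and 9.05, 9.16 and 8.20 in Tnfr1,2-/- glomeruli. Apart from Tnfr1-/- 2 at 10.40, its values with and without Tnfr1 covered nearly the same range. The difference was 0.33 (-0.24 to 0.91, limma adjusted p = 0.767). Usp18 lies 4.1 Mb from Tnfrsf1a on chromosome 6, and whether the mutants carry sequence of the donor strain there was not tested. Herc6, the ligase that attaches Isg15 in mice, had a difference of -0.55 (-0.99 to -0.10, limma adjusted p = 0.29). With the array set as a block its difference was -0.65 and it was called lower (limma adjusted p = 0.00157). The other probe sets of Herc6 had differences of -0.32, -0.57 and -0.60, and none was called. Herc6 is 67.7 Mb from Tnfrsf1a on the same chromosome, and Parp12 86.2 Mb.

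Ifi35, a regulator of the RIG-I pathway, read 10.60, 10.68 and 10.88 in wildtype, 10.61, 10.81 and 10.71 in Tnfr2-/-, 10.27, 10.50 and 10.11 in Tnfr1-/- and 10.22, 10.43 and 9.74 in Tnfr1,2-/- glomeruli. All 6 arrays without Tnfr1 were below the 6 with it, although the difference of -0.50 (-0.79 to -0.22) was not called (limma adjusted p = 0.0696) and was smaller than 1.5-fold. The cytosolic sensors ranged from -0.40 for Ifih1, or MDA5 (-0.78 to -0.02, limma adjusted p = 0.405), to -0.06 for Adar, and none of the 5 was called. Ifih1 had a difference of -0.48 and a limma adjusted p of 0.0332 in the fit that blocked on the array set, still under 1.5-fold.

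The Mx GTPases were dim. Mx1 read 3.59, 3.48 and 3.90 in wildtype, 3.74, 3.47 and 3.75 in Tnfr2-/-, 3.54, 3.63 and 3.73 in Tnfr1-/- and 3.60, 3.88 and 3.81 in Tnfr1,2-/- glomeruli, with a difference of 0.04 (-0.18 to 0.27). RefSeq lists Mx1 and Mx2 of C57BL/6J as transcribed pseudogenes. In all, 26 of the 34 genes reached a log2 value of 6 on at least 3 arrays. The 8 that did not were Dhx58, Zbp1, Oasl1, Oas2, Oas3, Mx1, Mx2 and Psmb11, a proteasome subunit of the thymic cortex, and their differences lay between -0.13 and 0.05.

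**Figure D3:**
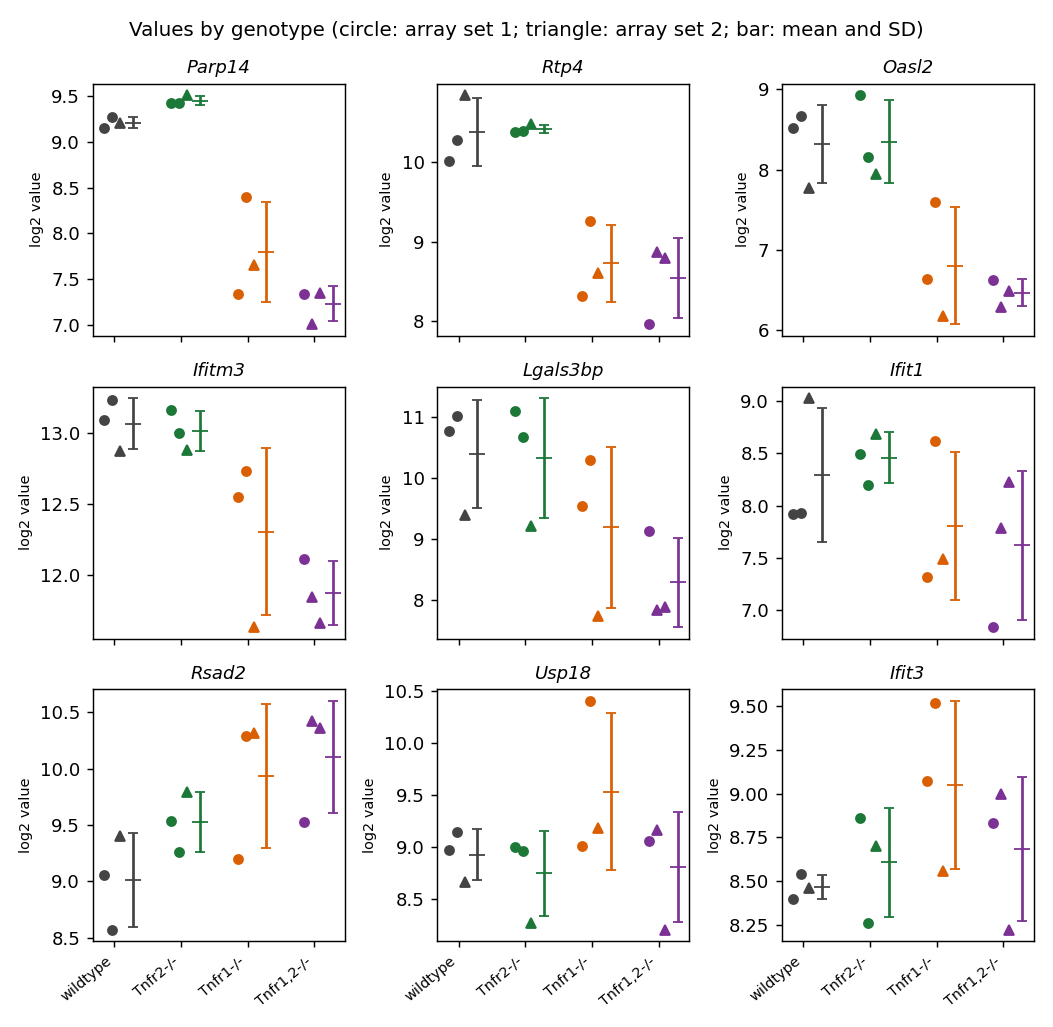
Log2 values of 9 genes on each array by genotype; circles mark array set 1, triangles array set 2, and the bar beside them is the mean with SD (n = 3). Parp14, Rtp4, Oasl2 and Ifitm3 separate by Tnfr1 without overlap, Lgals3bp is low in set 2 of every genotype, and Ifit1, Rsad2, Usp18 and Ifit3 overlap, with Tnfr1-/- replicate 2 high in Usp18 and Ifit3.

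The loss of Tnfr1 was measured once with Tnfr2 present and once without it, in comparisons that share no array. In Tnfr1-/- against wildtype glomeruli, 5 of the 34 genes were called lower (0.72% of all genes) and none higher (0.484%). These calls rest on a spread estimated over all 12 arrays: with the 6 arrays compared fitted alone, none of the 5 was called (limma adjusted p from 0.0652 to 0.0924). In Tnfr1,2-/- against Tnfr2-/- glomeruli, 6 were called lower (1.04%) and none higher (0.346%). Here Dtx3l lost its call with the 6 arrays alone (adjusted p = 0.119). Parp14, Parp9, Dtx3l, Xaf1 and Rtp4 were called in both, which is all 5 of the first comparison and 5 of the 6 of the second. Parp14 was 2.66-fold lower in the first and 4.65-fold lower in the second, Rtp4 3.15-fold and 3.66-fold, and Xaf1 2.92-fold and 2.80-fold. Oasl2 was 3.68-fold lower in the second, where it was called, and had a 2.86-fold difference in the first, where it was not (limma adjusted p = 0.0974) unless the array set was a block (0.0056). In 8 genes both differences were -1 or lower, and in 1, Rsad2, both were 0.5 or higher (0.92 and 0.57). The 2 differences were both negative in 17 genes, both positive in 8 and of opposite sign in 9. Of all genes, 51.1% had a negative difference in the first comparison and 48.2% in the second. Across the 34 genes, which are not independent replicates, Pearson's r between the comparisons was 0.92, against 0.62 across all genes.

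**Figure D4:**
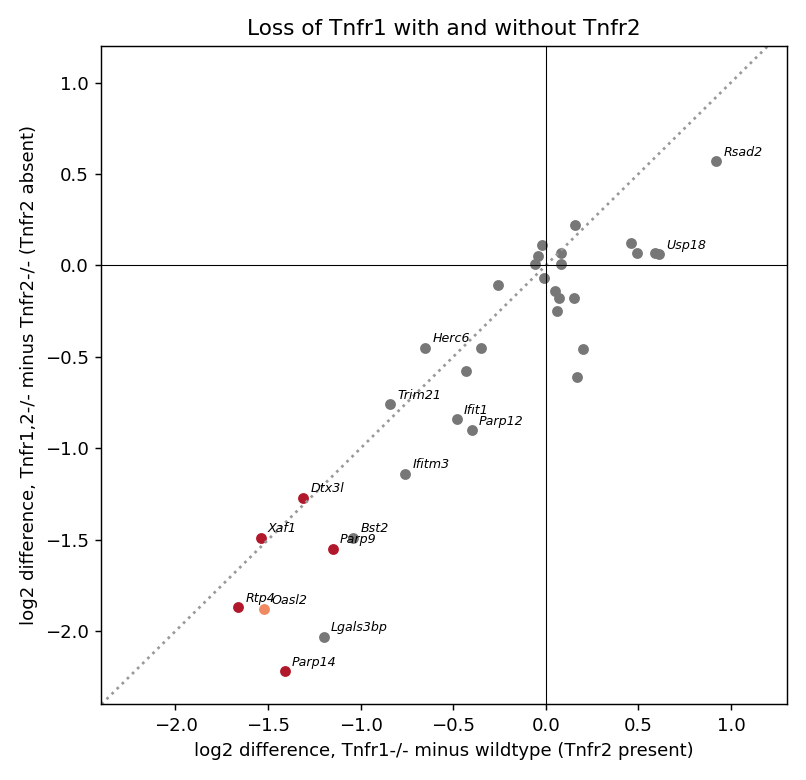
Log2 difference of each measured gene in Tnfr1-/- minus wildtype (horizontal) and in Tnfr1,2-/- minus Tnfr2-/- glomeruli (vertical), 3 arrays per genotype and no array shared between the axes. Red points are the 5 genes called lower in both, the orange point is Oasl2, called on the vertical axis and not on the horizontal one (adjusted p = 0.0974), and grey points were called on neither; the dotted line marks equal differences. Parp14 lies at -1.41 and -2.22 and Rsad2 at 0.92 and 0.57.

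Whether the difference by Tnfr1 itself depended on Tnfr2 was tested with the interaction of the loci. None of the 34 genes was called (limma, 0% of all genes). At an unadjusted p under 0.05 it was 1 gene, against 245 of all 18193 genes. That gene was Parp14, with an interaction of -0.81 (-1.50 to -0.11, limma adjusted p = 0.998). The intervals of the interaction were wide, and only 2 genes had one within 1.5-fold.

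When both receptors were absent, 7 genes were lower than in wildtype glomeruli (0.879% of all genes) and none was higher (0.418%). They were Parp14 (3.94-fold), Oasl2 (3.61-fold), Rtp4 (3.58-fold), Xaf1 (2.99-fold), Parp9 (2.72-fold), Dtx3l (2.47-fold) and Ifitm3 (2.28-fold), with limma adjusted p from 0.000879 for Parp14 to 0.045 for Ifitm3. With these 6 arrays alone, Dtx3l and Rtp4 were not called (adjusted p = 0.112 and 0.0561). The count of 7 fell to 4 when wildtype 1, wildtype 2, Tnfr1,2-/- 1, Tnfr1,2-/- 2 or Tnfr2-/- 2 was left out. Of these arrays, Tnfr2-/- 2 is not in this comparison and enters it only through the shared estimate of the spread. In Tnfr1-/- against wildtype, 2 of the 5 calls remained without wildtype 2, and 3 without wildtype 3 or without Tnfr1-/- 1. A block for the array set raised the count there to 11 and to 12 in Tnfr1,2-/- against Tnfr2-/-, all lower. It added Bst2, Lgals3bp, Trim21, Herc6 and Ifitm3 to both, Oasl2 to the first and Parp12 to the second. Calls rose over all 18193 genes too, to 470 in the first and 404 in the second. Without the block 131 were lower and 88 higher in the first, and 190 and 63 in the second.

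Loss of Tnfr2 moved no gene of the list past the threshold. In Tnfr2-/- against wildtype glomeruli none of the 34 was called by limma (0% of all genes) or by SAM. None had an unadjusted p under 0.05, against 128 of all 18193 genes. The differences ranged from -0.18 to 0.52, and 15 genes had a 95% interval within 1.5-fold. In Tnfr1,2-/- against Tnfr1-/- glomeruli none was called by limma (0.0055% of all genes) or by SAM. Parp14 alone had an unadjusted p under 0.05 (difference -0.57, -1.06 to -0.08), against 472 of all 18193 genes. Over all 12 arrays by the Tnfr2 locus, none was called by limma (0.0275% of all genes) or by SAM. None had an unadjusted p under 0.05, against 176 of all 18193 genes, and 24 of the list had an interval within 1.5-fold. Some wider intervals in Tnfr2-/- against wildtype took in 1.5-fold differences in both directions, such as Usp18 (-0.18, -0.99 to 0.63) and Lgals3bp (-0.07, -1.59 to 1.46). For such genes the 3 arrays a genotype did not exclude a change of that size.

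Replicate 2 of Tnfr1-/- stood apart from the other arrays without Tnfr1. The mean over the 34 genes was 7.97 on that array, against 7.43 to 7.52 on the other 5 and 7.95 to 8.18 on the 6 arrays with Tnfr1. It had the highest value of the 6 for 19 of the 34 genes and for 7 of the 10 called ones. Without it, 9 of the 10 genes were still called lower and Parp12 was not (adjusted p = 0.0641). The median difference of the list in Tnfr1-/- against wildtype was -0.05 with it and -0.27 without it. The residual SD of a gene around its genotype mean had a median of 0.29 over the 34 genes and of 0.24 over all genes.

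Upstream of these genes, 30 of 32 genes of interferon production, receptors and signalling were measured. Of these, 5 were lower without Tnfr1 over the 12 arrays and none was higher, beside the 1.59% and 0.929% of all genes. With the array set as a block, Ifngr2, a chain of the interferon-γ receptor, was called lower too (-0.81, limma adjusted p = 0.0336; -0.96 and 0.198 without the block), and Socs3, which inhibits cytokine receptor signalling, was called higher (0.71, 0.0106; 0.81 and 0.116 without the block). Ikbke, the kinase that phosphorylates Irf3 and Irf7, read 8.71, 8.77 and 8.19 in wildtype, 8.90, 8.70 and 8.51 in Tnfr2-/-, 6.96, 7.29 and 6.39 in Tnfr1-/- and 6.71, 6.18 and 6.53 in Tnfr1,2-/- glomeruli. It was 3.86-fold lower (2.97 to 5.03, limma adjusted p = 5.88e-05), with no overlap. Irf1, the transcription factor that binds many of the same promoters without STAT proteins, read 11.28, 11.60 and 10.78 in wildtype, 11.48, 11.33 and 11.22 in Tnfr2-/-, 9.55, 10.56 and 9.32 in Tnfr1-/- and 9.98, 9.24 and 9.15 in Tnfr1,2-/- glomeruli. The nearest values of the 2 sides were 10.78 and 10.56. Irf1 was 3.13-fold lower (2.20 to 4.45, limma adjusted p = 0.00166).

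Ddx58, the RNA sensor RIG-I, was 1.92-fold lower (1.60 to 2.30, limma adjusted p = 0.00086). It read 9.17 to 9.56 over the 6 arrays with Tnfr1 and 8.15 to 8.77 over the 6 without it. Both chains of the type I receptor were called, Ifnar2 1.76-fold lower (1.42 to 2.18, limma adjusted p = 0.0076) and Ifnar1 1.58-fold lower (1.27 to 1.96, limma adjusted p = 0.0276). The Ifnar1 call was lost in array set 1 alone (-0.53, adjusted p = 0.371), with the mean of its probe sets (-0.41, adjusted p = 0.411) and when any of 7 single arrays was left out. Ikbke and Ddx58 were called in each of the 3 pairwise comparisons that remove Tnfr1, and Irf1 in the 2 with Tnfr1,2-/-. With the array set as a block Irf1 was called in Tnfr1-/- against wildtype as well (-1.41, limma adjusted p = 0.00365). With the 6 arrays of a comparison fitted alone, Ddx58 lost all 3 calls (adjusted p from 0.0546 to 0.114), Ikbke that in Tnfr1-/- against wildtype (0.0647) and Irf1 that in Tnfr1,2-/- against wildtype (0.0527).

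The interferon genes themselves were dim. Ifnb1 read 4.01 to 4.60 and Ifng 2.62 to 2.92 over the 12 arrays, with differences of -0.09 (-0.34 to 0.16) and -0.08 (-0.26 to 0.09). Irf7, the factor that amplifies the type I response, read 6.63, 6.66 and 6.42 in wildtype, 7.19, 6.89 and 6.34 in Tnfr2-/-, 6.52, 6.55 and 6.04 in Tnfr1-/- and 6.16, 6.14 and 5.99 in Tnfr1,2-/- glomeruli. The groups overlapped, and the difference was -0.45 (-0.78 to -0.13, limma adjusted p = 0.197). Stat2 and Irf9, the partners of the complex at the response element, had differences of -0.49 (-1.03 to 0.04) and -0.14 (-0.53 to 0.24). Over the 30 upstream genes the median difference was -0.21.

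**Figure D5:**
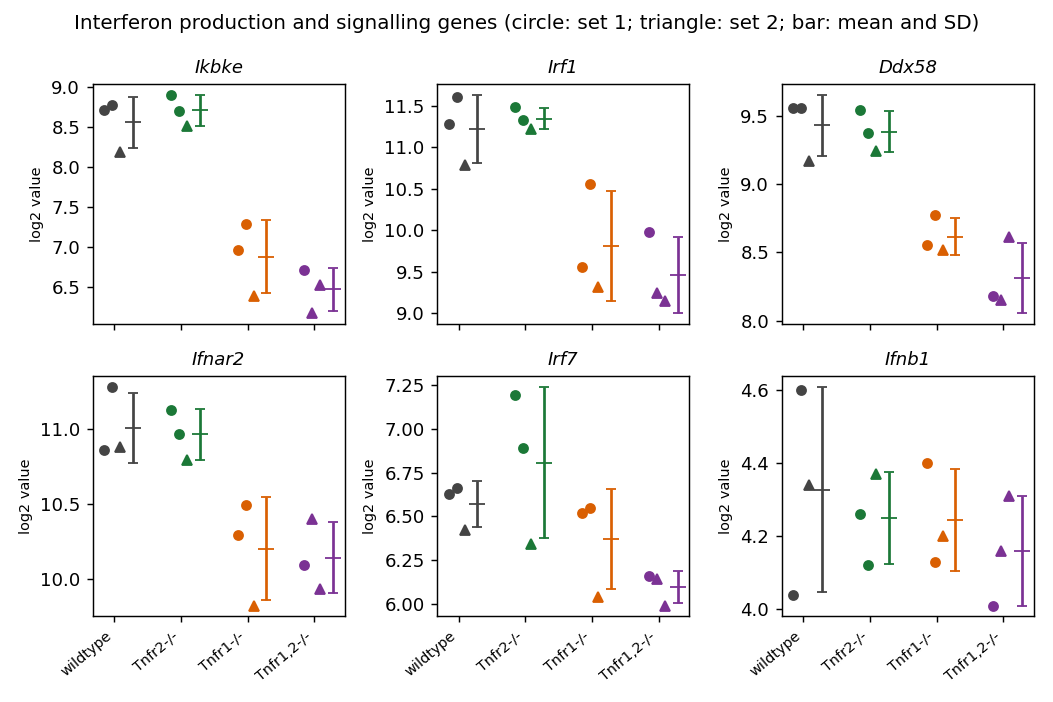
Log2 values of 6 genes of interferon production and signalling on each array by genotype; circles mark array set 1, triangles array set 2, and the bar is the mean with SD (n = 3). Ikbke, Irf1, Ddx58 and Ifnar2 separate by Tnfr1 without overlap, Irf7 overlaps, and Ifnb1 stays between 4.01 and 4.60 in all genotypes.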

How the data were processed

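RNA of 12 glomerular preparations (4 genotypes, 3 arrays each) was measured on Affymetrix whole-genome mouse arrays. The authors scanned them with GCOS 1.0 and normalised the 12 together by the robust multichip average (RMA Express 1.0 beta 2), so that the deposited values are log2 signals, used here without further scaling. The precision is limited by the number of arrays. Of 45101 probe sets, 34945 carried 1 gene symbol, 932 several and 9211 none (64 were controls), and each of 18193 genes was represented by its single-symbol probe set with the highest mean. Members and lists were chosen with earlier results of these data known.

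Genotype means were fitted by limma 3.58.1 (R 4.3.3; contrasts of lmFit, eBayes without trend, 8 residual degrees of freedom), with Benjamini-Hochberg adjustment over all genes. Calls needed an adjusted p below 0.05 and a 1.5-fold difference. The scripts were tested on simulated data. Values on every array are given for called members, for a few named whatever they did and for the 3 with the highest wildtype mean; 1 gene of the rule is not reported here. Alternatives were SAM (written from its published description), arrays compared alone, variance trend, array weights, fold thresholds, scaling, a filter at log2 6, the mean of probe sets, cross-hybridising probe sets left out, replicate and array-set blocks, and each array left out. Promoter sequences came from RefSeq (GRCm38.p6).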

Additional observations from a re-analysis of the deposited data

How the results depend on the processing

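Differences kept their sign for every called gene under every alternative run, while counts of called genes moved. In Tnfr1,2-/- against wildtype the count of 7 became 12 with array weights (11 lower, 1 higher) and 11 with a replicate block, and ranged from 4 to 8 with 1 array left out. In Tnfr1-/- against wildtype the count of 5 became 0 when only the 6 arrays compared were fitted, 9 with the replicate block and 11 with the array set as a block, and ranged from 2 to 5 with 1 array left out. In Tnfr1,2-/- against Tnfr2-/- the count of 6 became 11 with array weights, 11 with the replicate block and 12 with the array set as a block, and ranged from 4 to 8. Over the 12 arrays by Tnfr1 the count of 10 ranged from 8 to 11 with 1 array left out and was 12 by SAM. With the array set as a block it was 13, of which Rsad2 was higher and the others lower. That block called 652 of all 18193 genes, against 290 lower and 169 higher without it. In array set 1 alone, a setting chosen after seeing the data, the count was 10, with Lgals3bp added and Parp12 dropped. Deviations of same-numbered arrays correlated above 0.1 in 15 of 18 pairs (-0.23 to 0.73) and those of differently numbered arrays in 12 of 36 (-0.76 to 0.51); since not every same-numbered pair did and the labels name no shared source, the replicate block stayed an alternative. The median difference of the list moved without dim probe sets, to -0.59, -0.41 and -0.60 in these 3 comparisons and to -0.52 over the 12 arrays, since the 8 dim genes lay near 0. In Tnfr1,2-/- against Tnfr2-/- it was -0.19 with the array set as a block and ranged from -0.40 to -0.14 with 1 array left out. The ranges were -0.27 to -0.05 in Tnfr1-/- against wildtype, -0.25 to -0.03 in Tnfr1,2-/- against Tnfr1-/- and -0.34 to -0.10 for the interaction. The cause of these movements was not tested. Signal near background limits what can be said of the 8 dim genes.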
